A study of Mus musculus with 8 samples.

Results

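The 36 genes described here encode proteins of the G2 phase and of mitosis, chosen by mouse symbol from 55401 genes in a table of read counts. They are mitotic cyclins and Cdk1, mitotic and checkpoint kinases, kinesins, centromere and kinetochore proteins, spindle proteins, cytokinesis factors and parts of the mitotic degradation machinery. Each symbol matched 1 Ensembl gene, and all 36 passed the filter on low counts, which left 17470 genes. The counts come from RNA of bone marrow-derived macrophages (BMDM), cells grown from mouse bone marrow, in 4 groups of 2 libraries. Both alleles of Mettl3, which encodes the catalytic subunit of the m6A mRNA methyltransferase, were floxed in every group. WT cells carried the floxed alleles alone (Mettl3fl/fl), and KO cells also carried Cre expressed from Lyz2 (Lyz2-Cre-Mettl3fl/fl), a gene active in macrophages, monocytes and neutrophils. The effects of Cre itself and of Mettl3 loss therefore cannot be told apart. PBS groups received PBS, and stimulated groups received 50 ng/ml LPS, a bacterial activator of TLR4, overnight and then 10 µM nigericin, which lets potassium leave the cell and so switches on the NLRP3 inflammasome. Nigericin was given for 3 h per the sample labels, while the series text also mentions 1 h. The age of the mice is not given in the sources used here, and no label says whether paired libraries were separate cultures or animals. The p-values below thus reflect library-to-library spread alone, which could be technical.

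Cells entering mitosis need cyclin B bound to Cdk1, which starts chromosome condensation and spindle assembly. Aurora and Polo-like kinases, kinesins and kinetochore proteins then attach and align the chromosomes, the spindle checkpoint holds anaphase back, and the anaphase-promoting complex with Cdc20 destroys cyclin B and ends mitosis. Most of these genes are transcribed late in the cell cycle, and many have promoters with CCAAT boxes and a cell cycle homology region (CHR), an element through which the DREAM and MuvB complexes and B-Myb or FoxM1 act. Bone marrow macrophages divide in response to M-CSF, and LPS is known to stop that division.

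Library totals lay between 55032057 and 65487739 counts, and the members held 0.0115 to 0.0321% of them. Mettl3 itself was lower in each KO library than in each WT library of the same treatment. It stood at 13.6 and 13.3 CPM (counts scaled to library size with TMM composition factors) in WT and at 5.63 and 6.33 in KO with PBS. After stimulation it stood at 28.2 and 23.4 CPM in WT and at 9.08 and 7.87 in KO. The log2 difference was -1.17 ± 0.14 with PBS (SE, n = 2 per group, edgeR quasi-likelihood adjusted p = 0.0143) and -1.61 ± 0.14 after stimulation (adjusted p = 0.00283). The PBS call was lost without any 1 of its 4 libraries (largest adjusted p = 0.0805). All 10 macrophage markers were measured, and their summed level was 43112 to 48934 CPM in WT libraries and 27401 to 28638 in KO libraries. That sum includes Lyz2, the gene that carries the Cre, which was lower in KO (log2 -0.99 with PBS and -1.14 after stimulation). The median log2 difference of the 10 markers was 0.02 with PBS, with 5 above and 5 below 0. After stimulation it was -0.23, with 3 above and 7 below 0.

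The promoters of the members shared short motifs that the choice of genes did not use. A RefSeq promoter (GRCm38.p6, 250 bases before to 50 after the start) was matched for 32 of 36 members, with none for Ccna2, Aurkb, Kif20a and Tpx2. TTTGAA, the core of many CHR elements, or its reverse complement TTCAAA, was found in 26 of 32 (81.2%), against 12.5% of the promoters of 11115 tested genes and 17.9% of all 32851 promoters in the table. The palindrome TTTAAA was found in 9 (28.1%), against 9.09% of tested genes and 13.2% of all promoters. CCAAT or its reverse complement ATTGG was found in 26 (81.2%), against 38.6% of tested genes and 37.4% of all. One of the hexamers and a CCAAT stood together in 25 of 32 members (78.1%), in 7.96% of tested genes and in 10.7% of all promoters. Different motifs overlapped at 1 place.

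Many of the matches lay near the start. A hexamer from 35 bases before to 50 bases after the start was present in 25 members and in 4.12% of tested genes, a window chosen after the positions were seen. Of 64 CCAAT matches, 51 lay within 150 bases before the start, and this was not counted over tested genes. The 160 bases before the RefSeq start are given for 7 members that span the range of responses below. Cenpa, Ube2c and Cdc20 had large decreases after stimulation of WT cells, Ckap2l had the smallest adjusted p between genotypes after stimulation, Kif11 and Top2a decreased less, and Mki67 increased. Capitals mark the hexamers and CCAAT on either strand, and each sequence runs 5′ to 3′ on the strand of its gene.
Cenpa: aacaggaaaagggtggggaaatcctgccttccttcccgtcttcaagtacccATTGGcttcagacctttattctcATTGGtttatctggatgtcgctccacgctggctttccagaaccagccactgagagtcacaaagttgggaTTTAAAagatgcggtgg
Ube2c: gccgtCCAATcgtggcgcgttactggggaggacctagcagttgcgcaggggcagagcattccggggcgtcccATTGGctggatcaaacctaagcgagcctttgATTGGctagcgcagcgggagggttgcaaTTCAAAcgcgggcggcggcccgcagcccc
Cdc20: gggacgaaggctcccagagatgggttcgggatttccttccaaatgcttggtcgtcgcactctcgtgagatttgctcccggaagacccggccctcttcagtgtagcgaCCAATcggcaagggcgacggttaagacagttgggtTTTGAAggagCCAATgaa
Ckap2l: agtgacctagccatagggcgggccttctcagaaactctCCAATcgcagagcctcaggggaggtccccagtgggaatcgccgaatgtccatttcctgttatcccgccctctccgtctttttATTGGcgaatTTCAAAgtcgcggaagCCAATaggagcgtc
Kif11: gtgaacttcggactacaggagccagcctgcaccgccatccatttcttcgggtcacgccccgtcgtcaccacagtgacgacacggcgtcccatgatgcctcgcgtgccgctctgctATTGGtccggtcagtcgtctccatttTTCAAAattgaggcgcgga
Top2a: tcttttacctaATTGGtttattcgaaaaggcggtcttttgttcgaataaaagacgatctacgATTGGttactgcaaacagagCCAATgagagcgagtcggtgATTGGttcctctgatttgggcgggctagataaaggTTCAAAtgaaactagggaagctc
Mki67: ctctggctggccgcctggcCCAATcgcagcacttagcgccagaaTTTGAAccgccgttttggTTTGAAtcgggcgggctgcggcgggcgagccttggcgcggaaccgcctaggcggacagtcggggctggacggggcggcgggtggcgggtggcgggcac
These windows are chr5:30666726-30666885 (plus strand), chr2:164769769-164769928 (plus), chr4:118437344-118437503 (minus), chr2:129297213-129297372 (minus), chr19:37376222-37376381 (plus), chr11:99024190-99024349 (minus) and chr7:135716380-135716539 (minus). In 6 of them a CCAAT stands before a hexamer that lies near the start, whereas in Mki67 both hexamers lie farther upstream. Every window shown holds a hexamer, which is not so for all members. Kif23, Kif4, Anln, Ttk and Cdca3, for example, have no hexamer in these 160 bases and have one after the start. A match describes letters and is not evidence of binding.

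**Figure D1:**
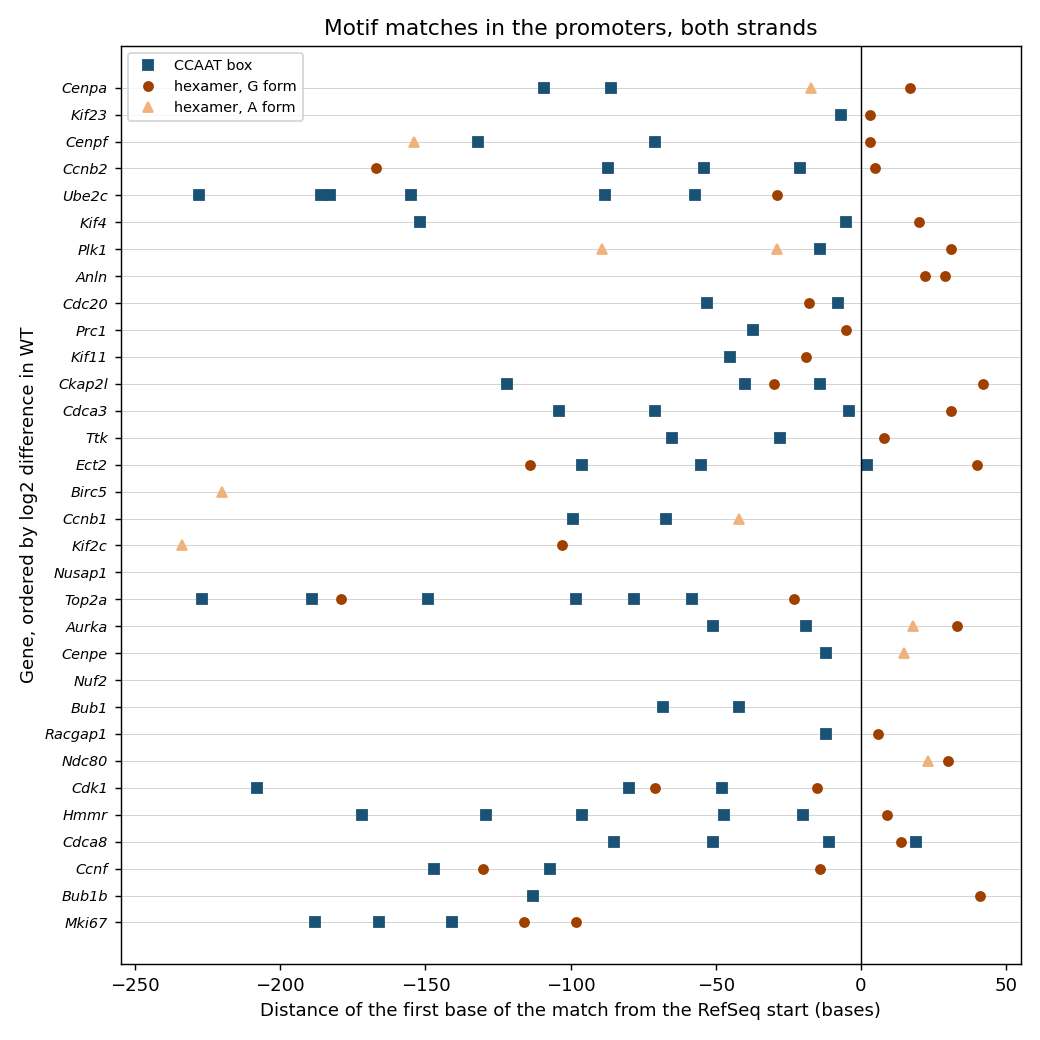
Motif matches in the RefSeq promoters of 32 members, with distance from the start in bases on the horizontal axis and genes on the vertical axis, ordered by the log2 difference in WT. Squares stand for CCAAT boxes, circles and triangles for the TTTGAA (G) and palindromic (A) form of the hexamer, on either strand; of 64 CCAAT matches, 51 lie within 150 bases before the start, and 25 members have a hexamer from 35 bases before to 50 after it.

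In WT macrophages, LPS and nigericin were accompanied by lower RNA of most of the 36 G2 and mitosis genes chosen here. Of 36 members, 25 fell and 2 rose at an adjusted p under 0.05 (edgeR), while 20.0% of all tested genes fell and 20.6% rose. The median log2 difference of the members was -1.18, against -0.01 over all tested genes. In 32 members both stimulated libraries lay below both PBS libraries, which held for 36.6% of tested genes. In bulk RNA, fewer dividing cells and less RNA per dividing cell cannot be told apart. Of 10 fibroblast and stromal markers, 6 fell and 1 rose with stimulation in WT, from sums of 190 to 213 CPM to 133 to 135. The sum of the neutrophil markers went from 4.10 and 4.30 CPM to 28.1 and 35.5 CPM with Ly6g, a defining marker, at 0. Only S100a8 and Camp of these were called higher. Of the 6 tested, 3 were above and 3 below 0 (median log2 -0.86). Elane, Mpo, Prtn3 and Ctsg were at 0 in both stimulated libraries. The part of either list in the result was not tested.

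The mitotic cyclins fell by very different amounts. Ccna2, cyclin A2, which acts with Cdk1 and Cdk2 in S and G2 phase, was at 5.59 and 4.87 CPM with PBS and at 0.782 and 1.20 after stimulation, a log2 difference of -2.39 ± 0.31 (adjusted p = 0.000903). Ccnb1, the main cyclin B of mitotic entry, was at 4.68 and 4.09 CPM and then at 1.95 and 2.10 (-1.12 ± 0.22, adjusted p = 0.00627). Ccnb2, the second B-type cyclin, was at 3.97 and 3.49 CPM and then at 0.0727 and 0.396, from 4 and 23 counts (-3.97 ± 0.58, adjusted p = 0.00164). All PBS libraries were above all stimulated ones for these 3 genes. The size of the Ccnb2 decrease rested on single stimulated libraries, at -3.23 without the first and -5.65 without the second. Cdk1, the kinase itself, was at 10.2 and 10.1 CPM with PBS and at 7.46 and 7.74 after stimulation (-0.41 ± 0.13, adjusted p = 0.0426). Ccnf, cyclin F, an F-box protein that binds no Cdk, was at 6.20 and 3.34 CPM and then at 4.26 and 4.22, so its groups overlapped.

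Among the kinases, Plk1, Ttk and Aurka fell. Plk1, the Polo-like kinase of mitotic entry and spindle assembly, was at 2.67 and 3.28 CPM with PBS and at 0.746 and 0.327 after stimulation (-2.47 ± 0.43, adjusted p = 0.00385), and the difference was -3.17 without the first stimulated library. Aurka, the centrosomal Aurora kinase, was at 5.57 and 4.99 CPM and then at 3.04 and 3.11 (-0.78 ± 0.23, adjusted p = 0.0336). Ttk, or Mps1, which starts checkpoint signalling at kinetochores, had a log2 difference of -1.41 ± 0.33 from a mean near 1 CPM (adjusted p = 0.0131). The other three did not pass. Bub1b, the checkpoint protein BubR1, was at 7.11 and 6.33 CPM with PBS and at 8.22 and 7.57 after stimulation, one of 3 members with both stimulated libraries on top (0.23 ± 0.14, adjusted p = 0.238). Aurkb, the kinase of the chromosomal passenger complex, had a log2 difference of -0.54 ± 0.22 (adjusted p = 0.0985), and Bub1 one of -0.69 ± 0.28 (adjusted p = 0.0913).

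Of the 5 kinesins, 4 fell. Kif23, the motor of the centralspindlin complex at the midzone, was at 6.37 and 4.38 CPM with PBS (415 and 291 counts) and at 0 and 0.241 after stimulation (0 and 14 counts), a log2 difference of -5.43 ± 0.85 (adjusted p = 0.00223). Kif20a, needed in cytokinesis, was at 6.43 and 4.87 CPM and then at 0.909 and 1.34 (-2.32 ± 0.25, adjusted p = 0.000369). Kif11, or Eg5, which pushes the spindle poles apart, was at 6.15 and 4.08 CPM and then at 1.69 and 1.29 (-1.78 ± 0.29, adjusted p = 0.00285). The PBS and stimulated libraries did not overlap for any of these 3 motors. Kif4, a chromosome-bound kinesin, fell as well (-2.64 ± 0.54, adjusted p = 0.00777), by 3.87 without the first stimulated library and by 1.98 without the second. The Kif23 difference was -4.46 without the first stimulated library, and without the second the group is at 0 counts, so its fitted size is no bound. Kif2c, which depolymerises microtubules at centromeres, had a log2 difference of -1.06 ± 0.39 (adjusted p = 0.0668).

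The centromere genes held the largest decrease of all 36 members. Cenpa (ENSMUSG00000029177, chromosome 5, 30666777 to 30674830, plus strand, GRCm38), the histone H3 variant that marks centromeres, was at 43.3 and 34.7 CPM with PBS and at 0.727 and 0.619 after stimulation. These are 2820 and 2305 counts against 40 and 36, a 57.8-fold decrease (log2 -5.85 ± 0.22, adjusted p = 3.4e-06). It was also the member with the most RNA per length in WT cells with PBS, at 6.65 CPM per kb of exon, ahead of Ccnb2 at 2.44, Mki67 at 2.33, Aurka at 2.09 and Cdk1 at 2.05. Cenpf, a large protein of the outer kinetochore, was the lowest per length at 0.138 CPM per kb. Its counts were 154 and 127 with PBS and 0 and 8 after stimulation (-4.89 ± 0.79, adjusted p = 0.00252), a difference of -3.93 without the first stimulated library and of no fixed size without the second, which leaves 0 counts. Cenpe, the kinetochore motor, was at 5.31 CPM in both PBS libraries and at 3.89 and 2.31 after stimulation (-0.78 ± 0.25, adjusted p = 0.0434). By contrast, the NDC80 complex subunits Ndc80 (-0.48 ± 0.22, adjusted p = 0.129) and Nuf2 (-0.72 ± 0.29, adjusted p = 0.0907) did not pass.

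All 3 members of the degradation machinery and all 3 cytokinesis genes fell. Ube2c, the E2 enzyme that works with the anaphase-promoting complex, was at 3.62 and 3.75 CPM with PBS and at 0.346 and 0.533 after stimulation (-3.06 ± 0.32, adjusted p = 0.000346). Cdc20, the activator of that complex, was at 4.14 and 3.22 CPM and then at 0.855 and 0.723 (-2.22 ± 0.26, adjusted p = 0.000609). Cdca3, an F-box-like protein, fell by 1.58 ± 0.19 on the log2 scale (adjusted p = 0.000693). Anln, anillin, a scaffold of the contractile ring, was at 4.93 and 4.18 CPM and then at 1.04 and 0.826 (-2.29 ± 0.21, adjusted p = 0.000199). Ect2, the RhoA exchange factor of cytokinesis, fell by 1.38 ± 0.28 (adjusted p = 0.0071). Racgap1, the partner of Kif23 in centralspindlin, was at 7.35 and 7.82 CPM and then at 5.26 and 5.28 (-0.53 ± 0.17, adjusted p = 0.047), so its decrease was smaller than that of Kif23.

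The remaining members included both called increases. Mki67 (ENSMUSG00000031004, chromosome 7, 135689784 to 135716361, minus strand), whose product Ki-67 coats mitotic chromosomes and is a common marker of cycling cells, was at 27.3 and 19.5 CPM with PBS and at 61.6 and 40.9 after stimulation (1.13 ± 0.24, adjusted p = 0.00857). Tpx2, the spindle factor that activates Aurka, was at 7.49 and 6.86 CPM and then at 12.1 and 13.6 (0.84 ± 0.15, adjusted p = 0.00449). After stimulation Mki67 at 5.09 and Tpx2 at 2.75 CPM per kb were the highest members per length. Top2a, the topoisomerase that separates sister DNA, went the other way, from 16.5 and 15.6 CPM to 9.68 and 7.81 (-0.88 ± 0.15, adjusted p = 0.00399). Birc5, survivin, a passenger complex subunit, fell by 1.24 ± 0.18 (adjusted p = 0.00162), whereas Cdca8, or borealin, of the same complex was at -0.26 ± 0.11 (adjusted p = 0.114). The spindle proteins Prc1, a crosslinker of midzone microtubules (-1.90 ± 0.36, adjusted p = 0.0053), Ckap2l (-1.76 ± 0.27, adjusted p = 0.00208) and Nusap1 (-0.91 ± 0.28, adjusted p = 0.039) fell, and the hyaluronan receptor and spindle protein Hmmr was at -0.32 ± 0.20 (adjusted p = 0.246).

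Summed over the members, the RNA of WT cells was 242 and 207 CPM with PBS and 152 and 129 after stimulation. Without Mki67 and Cenpa, the sums were 172 and 152 against 90.1 and 87.8. Members under 1 CPM numbered 1 and 0 in the PBS libraries and 11 and 12 in the stimulated ones. With 1 library left out at a time, 21 of the 27 calls remained in all 8 fits. Those of Aurka, Cdk1, Cenpe, Nusap1, Racgap1 and Ttk did not (largest adjusted p = 0.158, for Racgap1).

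**Figure D2:**
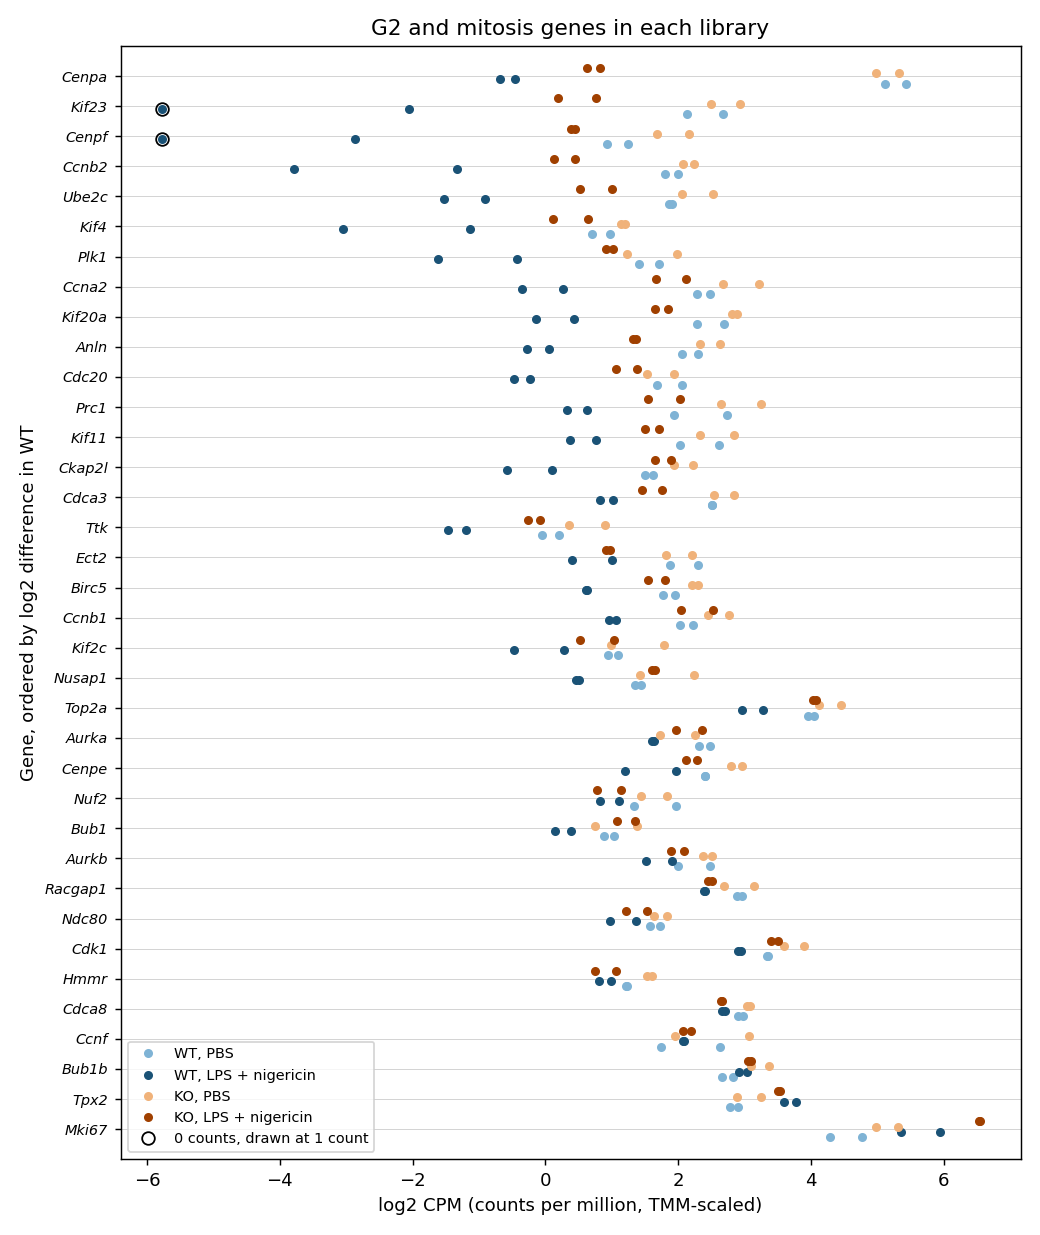
Level of each member in each of the 8 libraries, as log2 CPM on the horizontal axis, with 1 point per library coloured by group and genes ordered by the log2 difference in WT. Open black rings mark libraries with 0 counts, drawn at the value of 1 count; Cenpa moves from 43.3 and 34.7 CPM to 0.727 and 0.619 in WT, while Mki67 moves from 27.3 and 19.5 to 61.6 and 40.9.

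In KO macrophages the same stimulation gave fewer calls. Of 36 members, 14 fell and 1 rose, against 19.0% of all tested genes that fell and 20.2% that rose. The median log2 difference was -0.65 (all tested genes -0.03), and 27 members had both stimulated libraries below both PBS libraries, against 37.2% of tested genes. Called lower in both genotypes were 12 members, in WT but not KO 13, and in KO but not WT 2. Mki67 was called higher in both genotypes and Tpx2 in WT, and 7 members were called in neither. Across the 36 members the WT and KO differences, which share no library, had Pearson r = 0.867 and Spearman rho = 0.808, given as a description.

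Cenpa again had the largest decrease, from 40.2 and 31.5 CPM to 1.54 and 1.77 (2363 and 1967 counts to 85 and 116), 21.7-fold (log2 -4.44 ± 0.20, adjusted p = 6.98e-06). Kif23 went from 7.64 and 5.65 CPM to 1.14 and 1.69 (-2.23 ± 0.66, adjusted p = 0.0342), and Ccnb2 from 4.73 and 4.20 to 1.36 and 1.10 (-1.86 ± 0.50, adjusted p = 0.0232). No library of these 3 genes was at 0 in KO cells. Ube2c fell by 1.53 ± 0.29 (adjusted p = 0.0055), Anln by 1.14 ± 0.20 (adjusted p = 0.00392), Kif20a by 1.09 ± 0.23 (adjusted p = 0.00908) and Cdca3 by 1.08 ± 0.19 (adjusted p = 0.0037). Prc1, Ect2, Ccna2, Kif11 and Birc5 fell as well, by 1.17 to 0.58. Cdca8 (-0.40 ± 0.11, adjusted p = 0.0289) and Hmmr (-0.65 ± 0.20, adjusted p = 0.0396) were the pair called in KO and not in WT.

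Several mitotic regulators called in WT were not called in KO. Ccnb1 was at 6.79 and 5.46 CPM with PBS and at 5.74 and 4.14 after stimulation (-0.31 ± 0.21, adjusted p = 0.292), and Cdc20 at 3.81 and 2.90 and then 2.61 and 2.10 (-0.51 ± 0.24, adjusted p = 0.145). Ckap2l was at 4.68 and 3.81 CPM and then at 3.73 and 3.15 (-0.30 ± 0.25, adjusted p = 0.389). Top2a was at 21.9 and 17.3 CPM and then at 16.4 and 16.9 (-0.24 ± 0.15, adjusted p = 0.265). In all 4 genes except Ccnb1 the stimulated libraries lay below both PBS libraries, and a p above the threshold does not show that these levels were equal. Plk1 (-0.69 ± 0.40, adjusted p = 0.221) and Cenpf (-1.53 ± 0.59, adjusted p = 0.0803) did not pass either. Mki67 rose from 39.7 and 31.4 CPM to 93.0 and 92.8 (1.38 ± 0.24, adjusted p = 0.00364), and Tpx2 stood at 9.48 and 7.35 and then 11.6 and 11.3 (0.44 ± 0.15, adjusted p = 0.0566).

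The KO count rested on few libraries. The members shared a shift between the libraries of each PBS group. In the first WT PBS library 28 of 36 members were higher than in the second, with a median log2 gap of 0.15. Among stimulated libraries the first was higher in 20 members in WT and in 22 in KO. In the first KO PBS library 32 of 36 members were higher than in the second, with a median log2 gap of 0.36. Without that library the median was -0.43 and 5 members were called lower, and without either stimulated KO library 5 were as well. The calls that remained in all 8 fits were those of Anln, Cdca3, Cenpa, Mki67 and Ube2c.

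**Figure D3:**
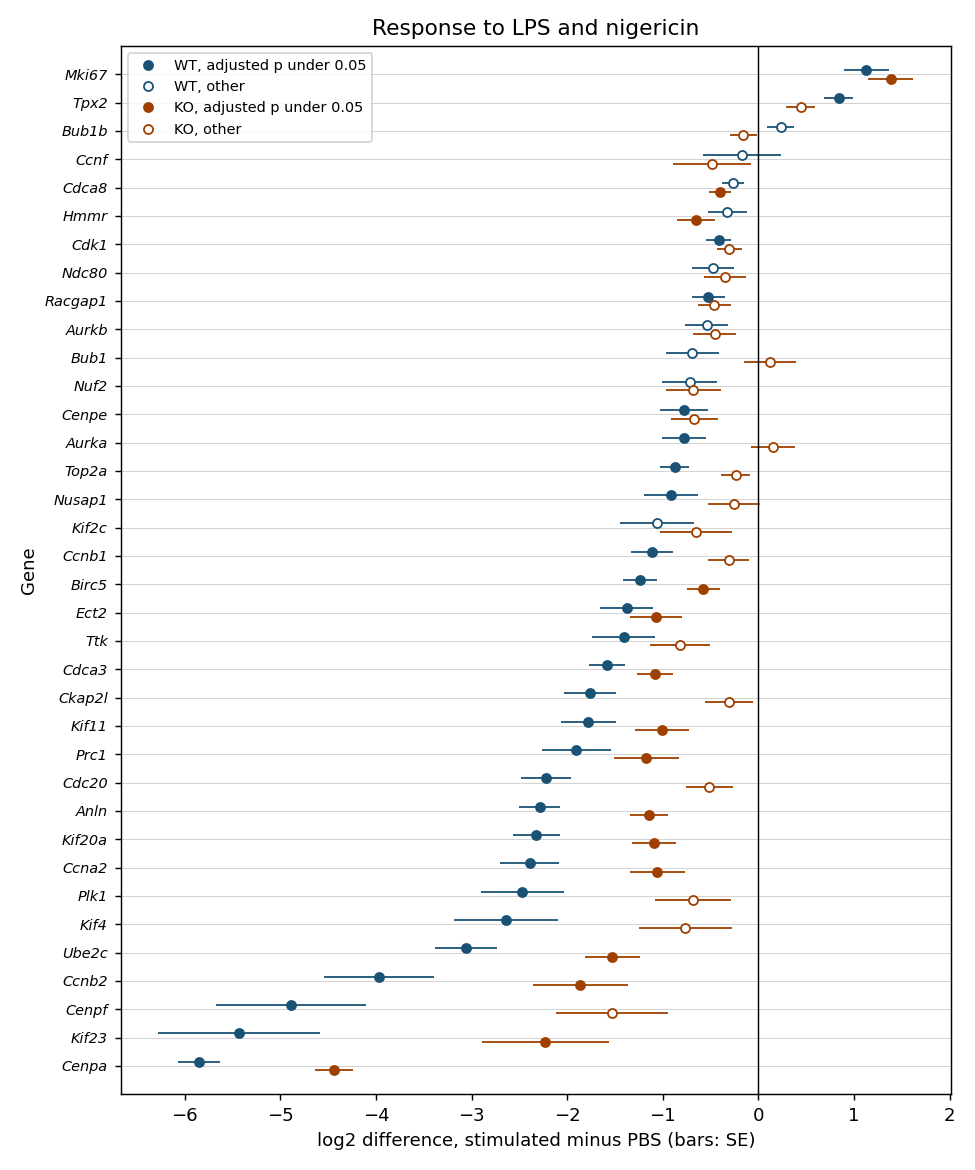
Log2 difference of stimulated against PBS libraries for each member, in WT and in KO, with filled points for an adjusted p under 0.05 (edgeR) and open points for the others. Of 36 members 25 fell in WT and 14 in KO, and Mki67 rose in both; the vertical line marks no difference.

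With PBS, no member was called between genotypes, in either direction. Over all tested genes 1.20% were called higher and 0.355% lower in KO. At an unadjusted p under 0.05, 3 members were higher in KO and none lower, while 15.4% of tested genes differed in either direction. DESeq2 and limma-voom called 0 members too. The median log2 difference was 0.32 (all tested genes 0), and 31 of 36 members were above 0. Without the first KO PBS library the median was 0.12 and 24 members were above 0. Both KO libraries lay above both WT libraries in 19 members and below them in 1, against 24.6 and 24.0% of tested genes. The smallest adjusted p belonged to Bub1b, at 7.11 and 6.33 CPM in WT and 8.51 and 10.3 in KO (0.48 ± 0.14, adjusted p = 0.178). Mki67 was at 27.3 and 19.5 CPM in WT and 39.7 and 31.4 in KO (0.60 ± 0.24, adjusted p = 0.293), and Ccna2 at 5.59 and 4.87 against 9.26 and 6.38 (0.58 ± 0.28, adjusted p = 0.387). Cenpa was at 43.3 and 34.7 CPM in WT and 40.2 and 31.5 in KO, so its groups overlapped.

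After stimulation, KO macrophages held more RNA of part of the set than WT macrophages. Called higher in KO were 11 members, none was called lower, and 2.91% of all tested genes were called higher and 2.01% lower. The median log2 difference was 0.99, against -0.00 over all tested genes, and 34 of 36 members were above 0. In 28 members both KO libraries lay above both WT libraries, which held for 25.0% of tested genes. Tpx2 was the 1 member with both KO libraries below, as 25.1% of tested genes were. The 11 calls depended on the fit. DESeq2 called 20 and limma-voom 6, and none was called when only the 4 stimulated libraries were fitted. Without the first stimulated KO library none was called, without the second 2, without the first stimulated WT library 5 and without the second 7, so none of the 11 remained in all 8 fits.

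Every role but the kinases held a called gene. Among cyclins, Ccna2 was at 0.782 and 1.20 CPM in WT and at 4.34 and 3.18 in KO (1.92 ± 0.30, adjusted p = 0.0201), and Ccnb1 at 1.95 and 2.10 against 5.74 and 4.14 (1.29 ± 0.22, adjusted p = 0.0252). Ckap2l, a protein of the mitotic spindle, had the smallest adjusted p, at 1.07 and 0.671 CPM in WT and 3.73 and 3.15 in KO (1.98 ± 0.27, adjusted p = 0.0122). For each of these 3 genes the lower KO library was at least as far from WT as the spread within either group. Among the degradation genes, Ube2c was at 0.346 and 0.533 CPM in WT and 2.01 and 1.43 in KO (1.96 ± 0.32, adjusted p = 0.0209), and Cdc20 at 0.855 and 0.723 against 2.61 and 2.10 (1.57 ± 0.26, adjusted p = 0.0225). Kif20a stood at 0.909 and 1.34 CPM in WT and 3.15 and 3.61 in KO (1.58 ± 0.24, adjusted p = 0.018), and Anln at 1.04 and 0.826 against 2.50 and 2.59 (1.45 ± 0.21, adjusted p = 0.0151). Birc5 was 1.06 ± 0.18 higher on the log2 scale (adjusted p = 0.0251) and Top2a 0.93 ± 0.16 higher (adjusted p = 0.0239).

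Both called centromere genes had very little RNA in stimulated WT cells. Cenpa was at 0.727 and 0.619 CPM in WT and at 1.54 and 1.77 in KO (1.30 ± 0.21, adjusted p = 0.0215), all 4 values far under its PBS levels. Cenpf had 0 and 8 counts in WT and 75 and 86 in KO (4.21 ± 0.79, adjusted p = 0.0331), a difference of 3.25 without the WT library at 0 and of no fixed size without the other. Further members with large differences did not pass, among them Kif23 with 0 and 14 counts in WT against 63 and 111 in KO (3.51 ± 0.84, adjusted p = 0.0689), Ccnb2 (2.36 ± 0.57, adjusted p = 0.0708), Kif4 (2.20 ± 0.54, adjusted p = 0.0738) and Plk1 (1.87 ± 0.43, adjusted p = 0.0608). Of these, Kif23 (adjusted p = 0.0218) and Ccnb2 (adjusted p = 0.0136) passed without the second stimulated WT library and Kif4 (adjusted p = 0.025) without the first. Mki67, at 61.6 and 40.9 CPM in WT and 93.0 and 92.8 in KO, did not pass (0.86 ± 0.24, adjusted p = 0.097). Tpx2 had a log2 difference below 0 (-0.17 ± 0.15, adjusted p = 0.615).

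Other cell types were checked beside this result. All 10 fibroblast and stromal markers were measured, with none at 0 in any library, and 8 of them were higher and none lower in KO after stimulation. Their summed level was 133 to 135 CPM in stimulated WT and 341 to 380 in stimulated KO libraries, against 190 to 213 and 293 to 313 with PBS, where 2 were higher in KO. Col1a1, a fibroblast collagen, was 1.33 ± 0.09 higher in KO after stimulation (adjusted p = 0.00147) and Cxcl12 2.18 ± 0.15 higher (adjusted p = 0.00133). Of the 8 B and plasma cell markers 4 were tested and 2 were higher in KO after stimulation, with sums of 0.860 to 1.02 CPM in WT and 3.65 to 3.82 in KO. These were Jchain and Cd79a. Cd79a was at 0 in both stimulated WT libraries. Its call was lost with only the compared groups fitted, with a block for the replicate number, or without any 1 of the 8 libraries. Neutrophil markers summed to 28.1 to 35.5 CPM in the stimulated groups with Ly6g at 0, and T and NK cell markers to at most 0.409 CPM with Cd3e at 0. Haematopoietic progenitor markers summed to 1.87 and 1.74 CPM in stimulated WT and to 3.27 and 2.40 in stimulated KO libraries. Of these markers Flt3 was at 0, and 0 were called between genotypes after stimulation. Myb was called higher with stimulation in both genotypes, from 0 counts in both WT PBS libraries and in the first KO PBS library. Both Myb calls were lost without some single libraries. The KO call was also lost with no composition factor, with only the compared groups fitted and with the replicate block. The part of these cells in the result was not tested. Of 10 macrophage markers, 3 were lower and none higher in KO after stimulation, led by Lyz2, the gene that carries the Cre.

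**Figure D4:**
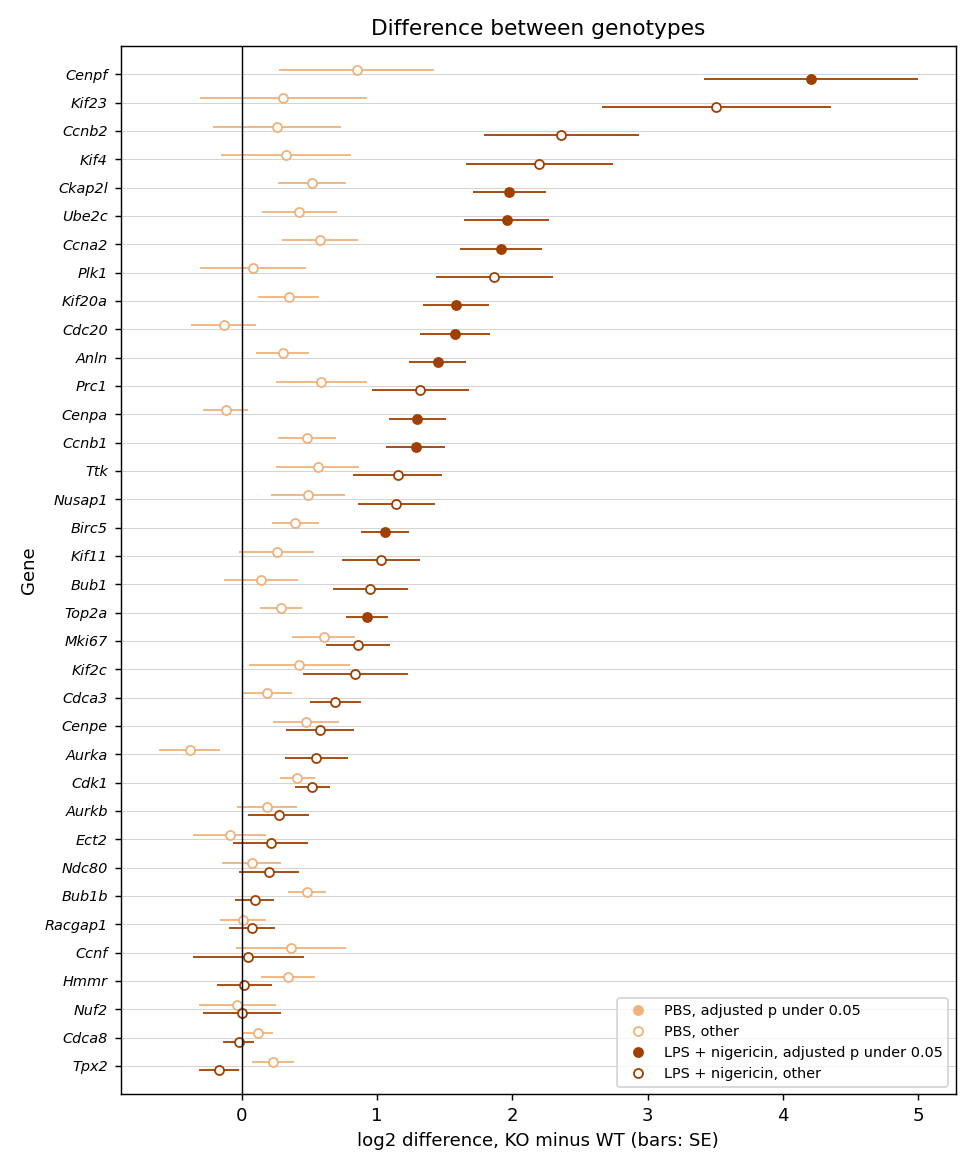
Log2 difference of KO against WT libraries for each member, with PBS and after stimulation, with filled points for an adjusted p under 0.05 (edgeR) and open points for the others. With PBS 0 members are called and after stimulation 11, all to the right of the line of no difference.

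The difference of the responses was tested directly, as the KO response minus the WT response. No member passed, which does not show that the responses were equal, and 0.103% of all tested genes were called higher and 0.395% lower. At an unadjusted p under 0.05, 16 members were positive and none negative, while 4.80% of tested genes were positive and 5.91% negative at that level. The median was 0.66 (all tested genes -0.00), and 31 of 36 members were above 0. The smallest adjusted p values were those of Cenpa (1.42 ± 0.27, adjusted p = 0.0939) and Cdc20 (1.71 ± 0.35, adjusted p = 0.122), followed by Anln (1.14 ± 0.29, adjusted p = 0.193) and Ckap2l (1.46 ± 0.37, adjusted p = 0.196). DESeq2's Wald test called 4 members positive, Cenpa (adjusted p = 0.0024), Cenpf (adjusted p = 0.00264), Kif23 (adjusted p = 0.013) and Cdc20 (adjusted p = 0.0197), and limma-voom called 0.

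The responses were set beside those of related genes, from lists that do not share the members. Over all tested genes 20.6% rose and 20.0% fell in WT, and 20.2% rose and 19.0% fell in KO. Between genotypes after stimulation 2.91% were higher and 2.01% lower in KO. Of 81 further G2 and mitosis genes, 79 were tested. In WT 9 (11.4%) rose and 19 (24.1%) fell (median -0.47), and in KO 7 (8.86%) rose and 10 (12.7%) fell (median -0.38). The falling share was thus a little above that of all tested genes in WT and under it in KO. None was called with PBS between genotypes, and 5 (6.33%) were higher and none lower in KO after stimulation (median 0.29). Ncapg2, a condensin II subunit, was at 266 and 245 CPM in WT with PBS and at 20.3 and 19.8 after stimulation (-3.67 ± 0.28, adjusted p = 8.42e-05). Mad2l1, the checkpoint protein Mad2, rose in WT from 9.44 and 9.42 to 17.7 and 19.4 CPM (0.98 ± 0.11, adjusted p = 0.000496) and in KO to 29.6 and 29.8 (1.75 ± 0.11, adjusted p = 3.43e-05). Nek2, a centrosomal kinase, was at 0.382 and 0.396 CPM in stimulated WT and at 2.15 and 1.60 in stimulated KO cells (2.26 ± 0.33, adjusted p = 0.0157).

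Genes that control G2 and mitosis went both ways. In WT 25.0% of them were called higher and 37.5% lower, against 20.6% and 20.0% of all tested genes. Of 32 tested, 8 rose and 12 fell in WT, 6 rose and 8 fell in KO, 1 was higher in KO with PBS, and 1 was higher and 1 lower in KO after stimulation. Cdkn1c, a Cdk inhibitor, fell by 2.77 ± 0.14 in WT (adjusted p = 1.08e-05), and Cdc25b, a phosphatase that activates Cdk1, by 1.46 ± 0.12 (adjusted p = 0.00013). E2f1, a transcription factor of S phase entry, rose (1.03 ± 0.10, adjusted p = 0.000211). Foxm1, at 1.87 and 1.70 CPM in WT with PBS and 0.946 and 1.79 after stimulation, and Mybl2, which encodes B-Myb, at 2.01 and 1.61 and then 1.05 and 1.10, were not called in any comparison.

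Genes of earlier phases gave calls in both directions, as all tested genes did. In WT 13.0% of the S phase genes rose and 10.9% fell, both under the shares of all tested genes. Of 46 S phase genes, 6 rose and 5 fell in WT (median -0.04), 7 rose and 2 fell in KO (median 0.05), none was called with PBS, and 2 were higher and none lower in KO after stimulation (median 0.03). Rrm2, a ribonucleotide reductase subunit, was among both sets, with -1.10 ± 0.20 in WT (adjusted p = 0.00411) and 1.40 ± 0.20 between genotypes after stimulation (adjusted p = 0.0131). Of 13 G1 cyclins and mitogenic genes, 2 rose and 2 fell in WT and 2 rose and 4 fell in KO, and 1 was higher in KO after stimulation, with Ccnd2 up (2.39 ± 0.25, adjusted p = 0.000349) and Myc down (-1.84 ± 0.19, adjusted p = 0.000316) in WT. Of 14 subunits of the anaphase-promoting complex, 3 rose and 2 fell in WT and 3 rose and 1 fell in KO, and none was called between genotypes. No test compared these lists with the members.

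**Figure D5:**
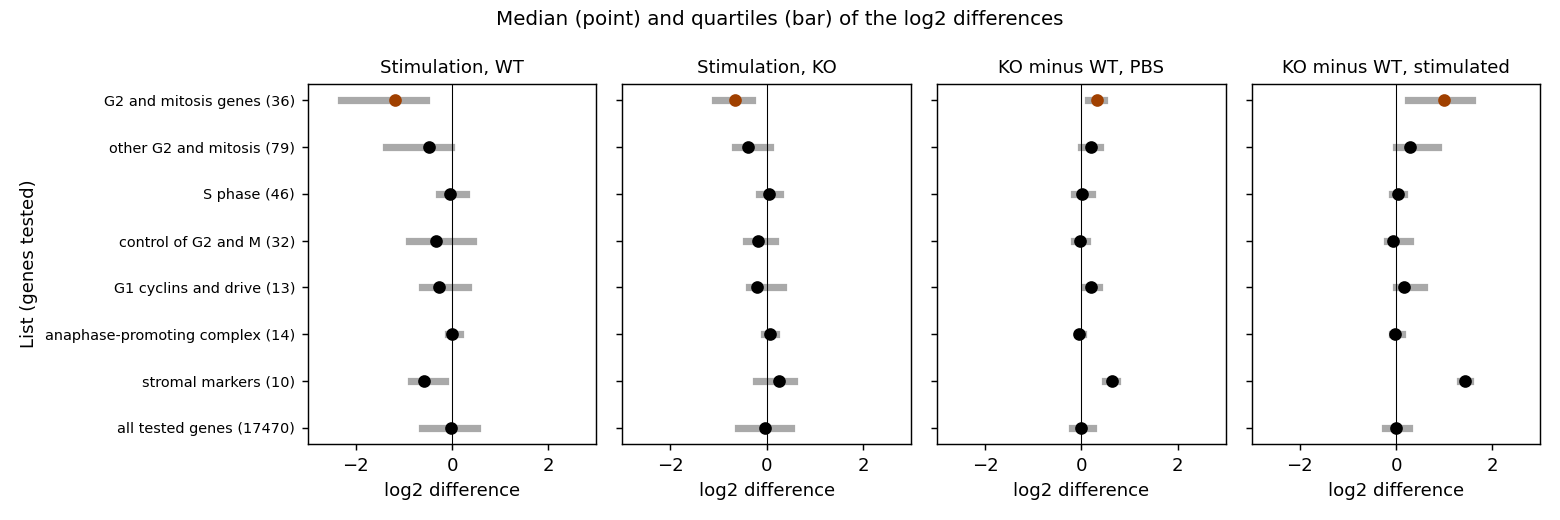
Median (point) and quartiles (bar) of the log2 differences in each list of genes, with the number tested, in 4 panels, the response to stimulation in WT and in KO, and KO minus WT with PBS and after stimulation. The members lie at medians of -1.18, -0.65, 0.32 and 0.99, and the S phase genes at -0.04, 0.05, 0.02 and 0.03.

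Several members overlap a gene on the other strand, and the strand setting of the counts is not stated, so reads of the overlap cannot be told apart. Kif20a overlaps Cdc23, Kif4 overlaps Pdzd11, Prc1 overlaps Rccd1, Cdca8 overlaps 9930104L06Rik, Nusap1 overlaps Oip5, Ccna2 overlaps Exosc9 and Cdc20 overlaps Elovl1. Elovl1 had 57205 counts over the 8 libraries against 1260 for Cdc20, and Pdzd11 had 14736 against 702 for Kif4. Exosc9 had 12380 against 2192 for Ccna2, and Cdc23 had 10719 against 2152 for Kif20a. Ube2c overlaps Tnnc2, which had 0 counts.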

How the data were processed

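Per the deposited table, the authors gave 1 raw read count per gene and library, with no normalisation; every count was used as deposited. Trimmomatic, Bowtie2 and edgeR with the genome mm10 are named without versions or roles in the submitters' processing notes; how reads were counted, with which annotation and strand setting, is not given in the sources used here. RNA came from Trizol extraction, per the labels. Of 55401 gene IDs, 55141 had a symbol in GENCODE M21.

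Genes were kept by filterByExpr (minimum count 10, minimum total 15), leaving 17470 genes. All 8 libraries were fitted with 1 coefficient per group in edgeR 4.0.16 (R 4.3.3, TMM factors, quasi-likelihood F test), with Benjamini-Hochberg adjustment over all tested genes within each of 5 contrasts at 0.05. Library totals were 55032057 to 65487739 counts, with a common biological coefficient of variation of 0.215. Chi-square per degree of freedom between libraries of a group was 40.6 to 85.2, so no library repeats another. Standard errors are the log2 difference over the root of F. CPM per kb used the union of exon lengths. The fit was tested on simulated counts.

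The members and lists were chosen with earlier results of these data known. All 36 members were eligible for naming, with up to 4 called genes per other list and contrast by adjusted p, and the 10 genes most correlated with the members' mean. Of the lists not given in full in the report, 6 of 10 neutrophil markers were tested and 2 rose with stimulation in each genotype; 4 of 8 erythroid and megakaryocyte markers, 1 rising in KO; 4 of 6 haematopoietic progenitor markers, 1 rising in each genotype; 1 of 8 T and NK cell markers, with no call; and 10 macrophage markers, 4 rising and 3 falling in WT and 4 and 4 in KO. Of 10 stromal markers 1 rose and 6 fell in WT, and 4 rose and 1 fell in KO.

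Alternatives were DESeq2 size factors, no composition factor, DESeq2 1.42.0, limma-voom (limma 3.58.1), all genes unfiltered, at least 5 CPM in 2 libraries, a fit of the compared groups alone, a block for the replicate number, and leaving out 1 library at a time. Figures used matplotlib 3.10.9.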

Additional observations from a re-analysis of the deposited data

How the results depend on the processing

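No difference printed for a named gene changed sign under the alternatives run. Members near 0 did: with 1 library left out, 24 to 35 of 36 were above 0 between genotypes with PBS, 3 to 4 with stimulation in WT and 2 to 6 in KO. With only genes of at least 5 CPM in 2 libraries, 20 members were tested, of which 14 fell in WT, 9 fell in KO and 6 were higher in KO after stimulation; the smaller number tested is built into that filter. Members higher in KO after stimulation numbered 17 with no composition factor, 20 with DESeq2, 6 with limma-voom and 0 with only the groups compared, against 11; the cause was not tested. DESeq2 called 4 members in the difference of responses, and limma-voom called 2 members higher with stimulation in KO. Leaving out 1 library at a time, members called lower numbered 19 to 24 in WT and 5 to 15 in KO, members called higher 2 in WT and 1 to 2 in KO, members higher in KO after stimulation 0 to 10, and members in the difference of responses 0 to 1 (Cenpf, without the second stimulated WT library). Omitting the composition factor moved the median of all genes to -0.20 in WT, -0.11 in KO, 0.13 between genotypes after stimulation and 0.10 in the difference, and the members' medians to -1.36, -0.73, 1.13 and 0.76. Whether replicate numbers pair libraries is not stated. Correlations of same-numbered deviations were -0.015 to 0.101 over all genes and -0.31 to 0.34 over the members. With the number as a replicate block, 2 members rose and 24 fell in WT, 1 rose and 13 fell in KO, and 12 were higher in KO after stimulation. Members near 0 counts, such as Cenpf and Kif23 in stimulated WT cells, are limited by depth, 1 count being worth 0.0150 to 0.0182 CPM.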

Other observations

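Outside the members, the 10 genes whose log2 CPM over the 8 libraries was most like the members' mean (Pearson r 0.983 to 0.996, given as a description over 8 libraries of 4 groups) were Gm47140, Uck2, Iqgap3, Rybp, Zfp948, Slc25a46, Gm20560, Tead1, Ccn2 and Gm13369. Iqgap3, a scaffold protein, is the one of them that is in a list of cell cycle genes. It was at 6.11 and 5.44 CPM in WT with PBS, 2.06 and 2.17 in stimulated WT, 7.85 and 5.93 in KO with PBS and 4.49 in both stimulated KO libraries. The members' own r with their mean ran from -0.711 for Tpx2, -0.328 for Mki67 and 0.146 for Bub1b to 0.983 for Anln.

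By promoter, 22 of the 23 members that fell in WT and had a RefSeq promoter held a hexamer and 20 held both a hexamer and CCAAT. Of the 8 that were not called, 6 held a hexamer and 4 held both. Mki67, which rose, held both. These counts are a description, and the difference was not tested.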
